A study of Homo sapiens with 9 samples.

Results

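The chromatin accessibility of breast cancer cells carrying a hairpin against E2F1 (shE2F1) was compared with that of cells carrying a control hairpin (shCtrl). The comparison used 4 of the 9 deposited ATAC-seq libraries, 2 of shCtrl and 2 of shE2F1, and was chosen by these labels. All 4 came from MDA-MB-231, a mesenchymal-like human triple-negative breast cancer (TNBC) line, and both groups were transduced with lentivirus for 24 h and then kept in puromycin at 2 μg/ml for 72 h, so the controls share the virus and the drug. The other 5 libraries, from the same line, were 2 of shEZH2, 1 of shSUZ12, 1 of DMSO and 1 of GSK126, an inhibitor of EZH2, and served here only as a readout that took no part in choosing regions. The series is 1 cell line, and the labels do not say whether replicates came from separate cultures, so the spread between replicates may be technical. The amount of E2F1 left in the cells is not measured by ATAC-seq and was not checked here.

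In ATAC-seq the Tn5 transposase cuts accessible DNA, and sites where cuts pile up over the local background are called peaks. E2F1 is a transcription factor that, released from the RB protein, drives the genes of S phase entry and DNA replication, and high E2F1 can also induce apoptosis genes. EZH2, the other protein the study follows, is the catalytic subunit of the repressive complex PRC2. The question of the comparison is which sites open or close when E2F1 is depleted. Each peak carries a fold enrichment, the ratio of its signal to the local background. Peaks of the 4 lists that overlapped by 1 bp were merged into 107395 regions. Gained regions held a peak of both shE2F1 lists and of neither shCtrl list, and lost regions held one of both shCtrl lists only. A gained or lost region was called steady when it kept its class after all lists were shortened to 68294 peaks, the length of the shortest. The strength of a region was the lower of the percentiles that its fold enrichment had within the lists of its 2 libraries.

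The sequences of selected summits are given first, as 200 bases of hg38, plus strand, at the summit of the region. Capitals mark TGAGTCA, the word of AP-1 factors, AGATAAG, the word of GATA factors, TGTGGT, the word of RUNX factors, GGAATG, the word of TEAD factors, the E2F words TTTCCCGC, TTTGGCGC, TTTCGCGC and TTTGCCGC, and the CTCF motif, on either strand. The regions nearest ZEB2 and CCL20 are the strongest steady gains, and those nearest RSPO3, CDK1 and CLDN20 are the strongest steady losses after that at NPBWR1, each with the RUNX word. The SLC10A7, TBX18 and CAMK2D regions are the strongest steady gains with the GATA word, and AGK is the strongest steady loss with the CTCF motif. These 4 were picked for their words after the values were seen. The NOTCH2 region is a steady promoter loss with an E2F word.
gained, nearest TSS ZEB2, chr2:145460222-145460421: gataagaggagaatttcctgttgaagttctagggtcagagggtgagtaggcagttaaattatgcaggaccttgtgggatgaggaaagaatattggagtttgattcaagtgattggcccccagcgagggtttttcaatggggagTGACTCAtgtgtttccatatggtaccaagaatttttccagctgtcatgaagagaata
gained, nearest TSS CCL20, chr2:227796502-227796701: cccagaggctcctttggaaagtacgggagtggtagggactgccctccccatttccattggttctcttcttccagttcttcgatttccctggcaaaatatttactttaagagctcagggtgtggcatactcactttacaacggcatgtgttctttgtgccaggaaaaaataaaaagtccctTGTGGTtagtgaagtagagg
gained, intron of SLC10A7, chr4:146495345-146495544: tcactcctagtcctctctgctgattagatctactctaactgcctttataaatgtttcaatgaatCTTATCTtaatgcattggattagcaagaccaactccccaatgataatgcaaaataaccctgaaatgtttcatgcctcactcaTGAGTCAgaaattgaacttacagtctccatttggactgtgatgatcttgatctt
gained, nearest TSS TBX18, chr6:84509028-84509227: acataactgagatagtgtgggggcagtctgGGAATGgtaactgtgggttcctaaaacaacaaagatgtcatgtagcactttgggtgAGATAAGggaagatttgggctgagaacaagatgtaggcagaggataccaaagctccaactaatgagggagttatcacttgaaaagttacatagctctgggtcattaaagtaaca
gained, nearest TSS CAMK2D, chr4:113411637-113411836: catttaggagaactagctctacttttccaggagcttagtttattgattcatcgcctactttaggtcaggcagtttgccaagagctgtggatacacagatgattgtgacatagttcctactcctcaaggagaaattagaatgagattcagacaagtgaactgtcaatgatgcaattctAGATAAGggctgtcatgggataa
lost, intron by RSPO3, chr6:127147078-127147277: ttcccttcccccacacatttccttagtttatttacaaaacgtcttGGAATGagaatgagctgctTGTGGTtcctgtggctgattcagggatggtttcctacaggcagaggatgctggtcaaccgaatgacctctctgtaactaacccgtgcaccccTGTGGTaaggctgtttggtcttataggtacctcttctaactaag
lost, nearest TSS CDK1, chr10:60663351-60663550: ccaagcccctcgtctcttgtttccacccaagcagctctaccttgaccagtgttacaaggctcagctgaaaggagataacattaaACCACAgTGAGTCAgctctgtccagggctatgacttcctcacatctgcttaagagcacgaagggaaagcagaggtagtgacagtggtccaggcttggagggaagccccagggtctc
lost, intron by CLDN20, chr6:155273529-155273728: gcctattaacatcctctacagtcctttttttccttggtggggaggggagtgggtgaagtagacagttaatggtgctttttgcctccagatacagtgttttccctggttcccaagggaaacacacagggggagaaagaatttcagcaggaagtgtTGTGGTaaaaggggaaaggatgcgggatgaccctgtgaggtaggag
lost, nearest TSS AGK, chr7:141533356-141533555: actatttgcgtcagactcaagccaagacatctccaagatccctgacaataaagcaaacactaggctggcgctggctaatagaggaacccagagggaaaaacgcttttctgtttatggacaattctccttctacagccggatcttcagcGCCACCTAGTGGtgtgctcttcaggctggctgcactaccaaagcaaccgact
lost, promoter of NOTCH2, chr1:120069733-120069932: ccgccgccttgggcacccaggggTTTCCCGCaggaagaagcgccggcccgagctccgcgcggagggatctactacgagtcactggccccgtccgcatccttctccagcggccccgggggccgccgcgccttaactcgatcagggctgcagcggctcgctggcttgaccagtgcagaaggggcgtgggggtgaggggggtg

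The lists differed in length. The shCtrl libraries held 78600 and 81743 peaks and the shE2F1 libraries 68294 and 85812, so the shE2F1 libraries were the shortest and the longest list. Sequencing depth is not given in the peak lists. The most frequent background under a peak, solved back from fold enrichment and its p-value, was 1.79 and 2.08 tags in shCtrl and 1.5 and 2.18 tags in shE2F1. The median fold enrichment was 6.94 and 7.19 in shCtrl and 6.49 and 6.61 in shE2F1, so peaks stood slightly higher over background in both shCtrl libraries. Of the merged regions of a pair, 71.7% were shared between the shCtrl libraries and 64.5% between the shE2F1 libraries. The 4 pairs across the groups shared 62.4% to 67.3%, so the shE2F1 libraries shared no more with each other than with some shCtrl libraries. The promoters of all 8 mesenchymal and basal markers (among them VIM, CD44, AXL, ZEB1, SNAI2, CAV1 and EGFR) had a peak in all 4 libraries, 4 of 8 luminal markers did, and of 8 blood cell markers only CD14 did.

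Regions with a peak in all 4 libraries were the largest class, and few regions followed the groups. Of the 107395 regions, 51211 (47.7%) had a peak in all 4 libraries, 3070 were gained, which is 2.86% of all regions, and 4088 were lost, which is 3.81%. With lists of equal length there were 89255 regions, of which 3050 (3.42%) were gained and 3368 (3.77%) lost. Of the gained regions 1971 (64.2%) were steady, and of the lost regions 2164 (52.9%). Shortening dropped 10306 and 13449 peaks of the shCtrl lists and 17518 of shE2F1 replicate 2, but none of shE2F1 replicate 1. The 2 shares are therefore not comparable, and a steady gain can be a peak at the floor of shE2F1 replicate 1. With 2 libraries against 2 the smallest p of an exact two-sided permutation test is 0.333, so the counts carry no test. The excess of lost over gained regions turned when the short shE2F1 library was left out: without shE2F1 replicate 1 there were 13623 gained and 5561 lost regions. At equal lengths it turned without either shE2F1 library, to 7616 gained and 5742 lost without replicate 1 and to 9288 and 8531 without replicate 2. The balance of gains and losses therefore rested on which libraries were used.

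**Figure D1:**
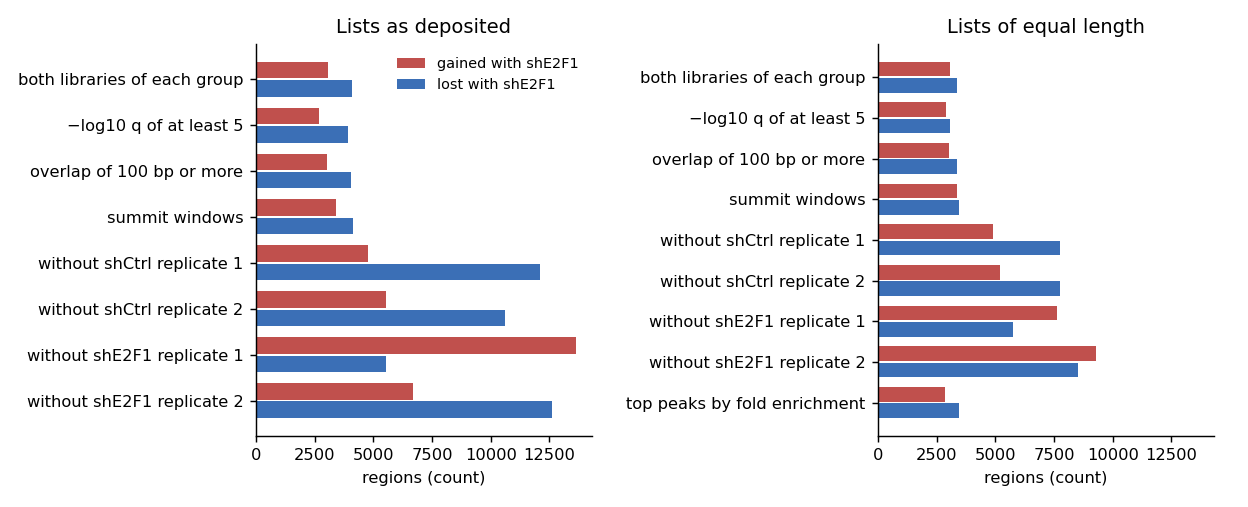
Number of regions gained (red) and lost (blue) with shE2F1 under each setting, for the lists as deposited (left) and for lists of equal length (right). The bars of the 2 groups stay close under other cutoffs and merging rules (2701 to 3410 gained, 3941 to 4135 lost as deposited), and lost exceeds gained except without shE2F1 replicate 1 and, at equal lengths, also without replicate 2.

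Gained and lost regions were weak peaks, and a small number were strong. The median gained region stood at the 31.2 and 32.6 percentile of fold enrichment in the 2 shE2F1 lists, and the median lost region at the 26.3 and 25.9 percentile in the 2 shCtrl lists. In both of their libraries, 370 gained regions (12.1%) and 250 lost regions (6.12%) were above the median peak, and 36 and 14 were at or above the 75 percentile. Absence from a list means only that no peak passed the cutoff there, and the lowest -log10 q in the 4 lists was 2.02 to 2.07.

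The strongest gained region lay at chr2:145459938-145460520, between genes and 940110 bp upstream of ZEB2, with a fold enrichment of 11.98 and 13.9 in the shE2F1 libraries and no peak in the other 7 libraries. The next lay 17308 bp upstream of CCL20, a chemokine gene, with 13.9 and 12.2, and had a peak in 3 of the 5 other libraries. Further strong gains were 53842 bp downstream of the TSS of AIPL1 (10.5 and 12.4), in introns of SBF2 (10.39 and 15.7), RBFOX3 (10.39 and 11.25), which encodes a neuronal splicing factor, and WLS (10.3 and 11.4), whose protein carries Wnt ligands to the cell surface. None of the SBF2, RBFOX3, WLS and SRBD1 regions had a peak in any of the 5 other libraries. The gained regions nearest NPR3, SRBD1, RIOK2 and KCNK1 complete the 10 strongest, with 9.92 to 16.5. Of these 10 regions, 5 had no peak outside shE2F1 and none had a peak in more than 3 of the 5 other libraries.

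The strongest lost regions were shared with many of the other libraries. The first lay 26298 bp upstream of NPBWR1, a neuropeptide receptor gene, with a fold enrichment of 13.3 and 17.2 in the shCtrl libraries. The second was in an intron 28538 bp downstream of the TSS of RSPO3, an enhancer of Wnt signaling (12.9 and 15.1). The third was 115214 bp upstream of CDK1, the kinase that drives entry into mitosis (13.7 and 13.2), and had a peak in all 5 other libraries. Lost regions near CLDN20 (14.5 and 12.6), AAK1 (11.8 and 12.02), ATG5 (10.8 and 11.05), an autophagy gene, and MLLT3 (10.39 and 13.0) followed. The lost regions nearest AGK, SMC4, a condensin subunit, and KLRF1 had 10.2 to 10.98. Of the 10, 6 had a peak in all 5 other libraries and none was without one.

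Gained regions lay farther from genes than lost regions. The median distance of a gained region to the nearest transcription start site (TSS) of a protein-coding gene was 49139 bp (95% interval 46328 to 53181, counting error only), against 36700.5 bp (34586 to 38804) for lost regions. Regions with a peak in exactly 1 shCtrl and 1 shE2F1 library, which are as sparse but favour no group, had a median of 41445.5 bp (39215 to 43730), between the 2 classes. Within 1 kb of a TSS lay 2.38% of gained regions (95% Wilson interval 1.90 to 2.98), 6.63% of lost regions (5.91 to 7.43), 5.12% of the 1-library-each regions and 23.05% of the regions in all 4 libraries. Conversely, 58.2% of gained and 45.2% of lost regions were intergenic. At equal list lengths the promoter shares were 2.62% and 5.26% and the median distances 51083.5 and 38336.5 bp. Gained and lost regions were both narrow, with median widths of 336 and 310 bp against 715 bp for regions in all 4 libraries and 306 bp for 1-library-each regions.

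**Figure D2:**
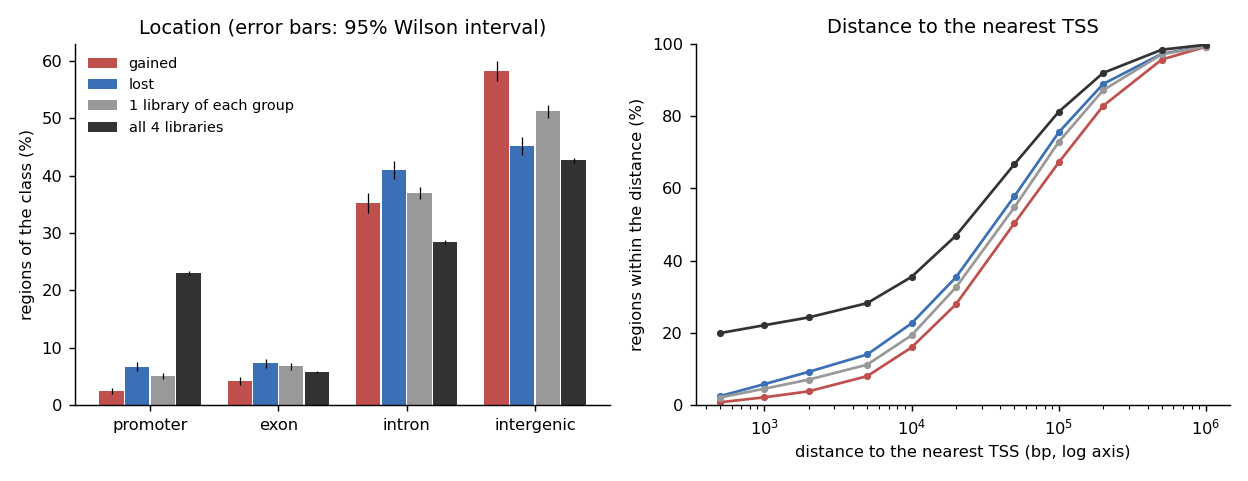
Share of each class of region at promoters (1 kb on each side of a TSS), exons, introns and between genes (left, error bars 95% Wilson intervals) and cumulative share within a distance of the nearest TSS (right, log axis). The gained curve lies lowest and the lost curve close to that of regions with 1 peak in each group (32.8% of gained and 24.4% of lost regions lay over 100 kb away), and 23.05% of regions in all 4 libraries are at promoters.

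Many gained regions were seen in no other library, whereas most lost regions were. Of the 3070 gained regions, 1532 (49.9%) had no peak in any of the 5 other libraries, against 766 of 4088 lost regions (18.7%) and 1902 of 7292 1-library-each regions (26.1%). The DMSO library had a peak in 22.5% (21.1 to 24.1) of gained and 51.0% (49.5 to 52.6) of lost regions, and the shSUZ12 library in 18.6% and 48.3%. The GSK126 library had one in 16.4% and 39.5%. The 2 shEZH2 libraries had one in 22.1% and 11.1% of gained and in 40.8% and 22.6% of lost regions. In each of the 5 libraries the 1-library-each regions lay between these values, at 17.2% to 40.4%. With all 9 lists cut to 58626 peaks the order was the same in each library, for example 27.6% of gained, 48.6% of 1-library-each and 60.03% of lost regions in DMSO. The 5 libraries are 1 to 2 per condition and are compared here only by counts of regions.

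**Figure D3:**
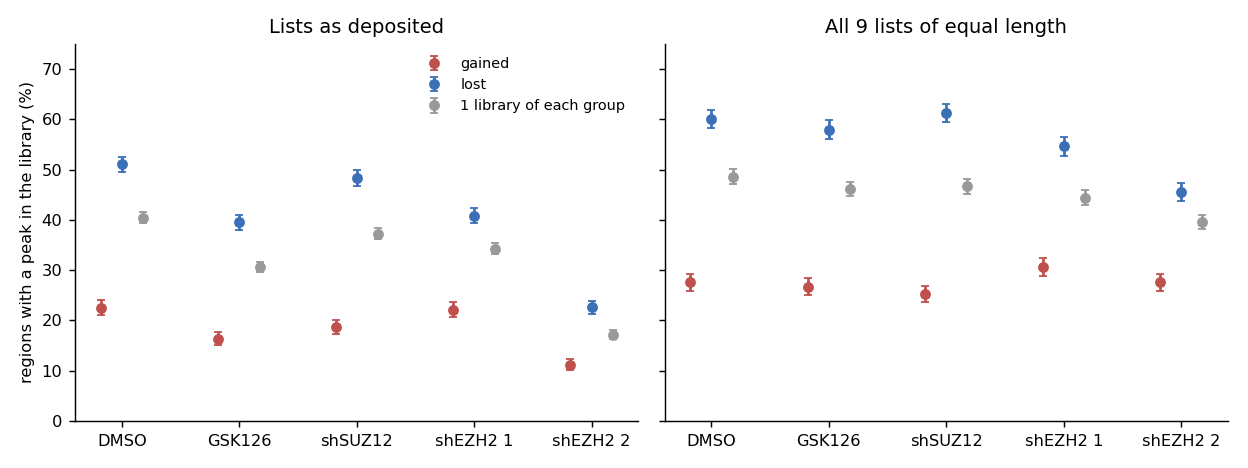
Share of gained (red), lost (blue) and 1-library-each (gray) regions with a peak in each of the 5 libraries not used to call them, with 95% Wilson intervals, for lists as deposited (left) and all 9 lists of equal length (right). In every library the lost regions are highest and the gained regions lowest, with gained shares of 11.1% to 22.5% as deposited.

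The changes were spread over the genome. Gained regions made up 1.65 (chromosome 21, 95% Wilson interval 1.02 to 2.66) to 3.52 (chromosome 14, 2.96 to 4.19) of every 100 regions of a chromosome, and lost regions 2.97 (chromosome 17) to 4.75 (chromosome 13). Chromosome 14 was the only one with more gained than lost regions as deposited (123 against 118), and chromosome 21 had the fewest gains per loss (16 against 42). At equal list lengths gains also exceeded losses on chromosomes 5 (206 against 188), 7 (210 against 185), 17 (145 against 124) and 20 (103 against 92). Consecutive gained regions lay a median of 441945 bp apart and consecutive lost regions 313356 bp, and 71 and 123 pairs lay within 10 kb. Of 2738 windows of 1 Mb that held a region, 1154 had no gained and 947 no lost region. Of the 2 windows with 6 steady lost regions, the highest count, chr2:85000001-86000000, around SFTPB, CAPG and TCF7L1, held 9 lost and 4 gained among 106 regions, and chr1:223000001-224000000, around CAPN2, TLR5 and SUSD4, held 6 lost and 2 gained among 73. Of the 2 with 6 steady gained regions, also the highest count, chr12:5000001-6000000, around ANO2, KCNA5 and NTF3, held 7 gained and 2 lost among 96, and chr7:142000001-143000000, around PRSS1 and TRPV6, held 7 gained and 7 lost among 138. In chr1:172000001-173000000, around FASLG, PIGC and SUCO, 7 of 77 regions were gained and none lost.

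Several changes within 100 kb of 1 gene were more often losses than gains, as lost regions were also the more numerous class (4088 against 3070). Of 20007 protein-coding genes, 4820 (24.1%) had at least 1 gained and 7032 (35.1%) at least 1 lost region within 100 kb of the TSS. At least 2 gained regions lay near 900 genes (4.50%) and at least 2 lost regions near 1910 (9.55%), and 119 genes had at least 2 of each. At equal list lengths the counts of genes with at least 2 were 852 and 1293. Genes in one neighbourhood share regions, so these counts are not independent. They were not recomputed with a library left out, although the balance of all gained and lost regions turned without shE2F1 replicate 1.

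The first locus by steady losses, and then by strength, was that of HEG1, which encodes a receptor of cell junctions. Its 4 lost regions lay 98021 bp and 1475 bp upstream and 9731 and 60348 bp downstream of the TSS, with fold enrichments of 4.20 to 10.2 in shCtrl 1 and 4.28 to 6.64 in shCtrl 2. The region 9731 bp downstream (10.2 and 6.04) had a peak in 4 of the 5 other libraries, while that 1475 bp upstream (4.20 and 4.28) had none. The windows of HEG1, SFTPB and CAPN2 also held 1 gained region each. SFTPB, the surfactant protein B gene, PGPEP1, GRIK4, a glutamate receptor subunit, CAPN2, a calpain, and ANXA2R also had 4 steady lost regions each. The PGPEP1 window also covers JUND and GDF15, and the region 9140 bp downstream of the PGPEP1 TSS had 7.01 and 8.57 in shCtrl. At ACTA2, the smooth muscle actin gene, whose window also holds the death receptor gene FAS, 3 steady lost regions with 6.12 to 7.95 lay within 26590 bp of the ACTA2 TSS, and 1 region was gained. ZAP70, a T-cell kinase gene, had 3 steady losses with 5.38 to 8.33.

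Among gains, the diacylglycerol kinase gene DGKZ had 5 steady regions between 8100 and 53631 bp upstream of its TSS. The strongest, 10988 bp upstream, had 5.42 and 5.88 and a strength of 31.2. The others were among the weakest peaks of their lists, with strengths of 0.301 to 5.26. Those 37418 to 53631 bp upstream of DGKZ lay nearer to the TSS of CREB3L1. The DGKZ window also held 3 lost regions. At SLC2A9, a urate transporter gene, 4 steady gained regions lay from 24206 bp upstream to 21232 bp downstream, with 5.19 to 6.79 in shE2F1 1 and 5.88 to 8.50 in shE2F1 2. At SLC16A12, a monocarboxylate transporter gene, 4 lay 12137 to 56629 bp downstream, with 4.64 to 6.39 and 5.99 to 9.13. Neither window had a lost region, and none of these 8 had a peak in more than 1 of the 5 other libraries. The 4 steady gains around SEMG1 included the promoters of the antiproteases PI3 (4.68 and 7.23) and SLPI (4.74 and 8.24). KCNK1, OLFM1 and ZNF429 had 3 each, the last in a cluster of related zinc-finger genes, where reads of near-identical copies are hard to place.

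**Figure D4:**
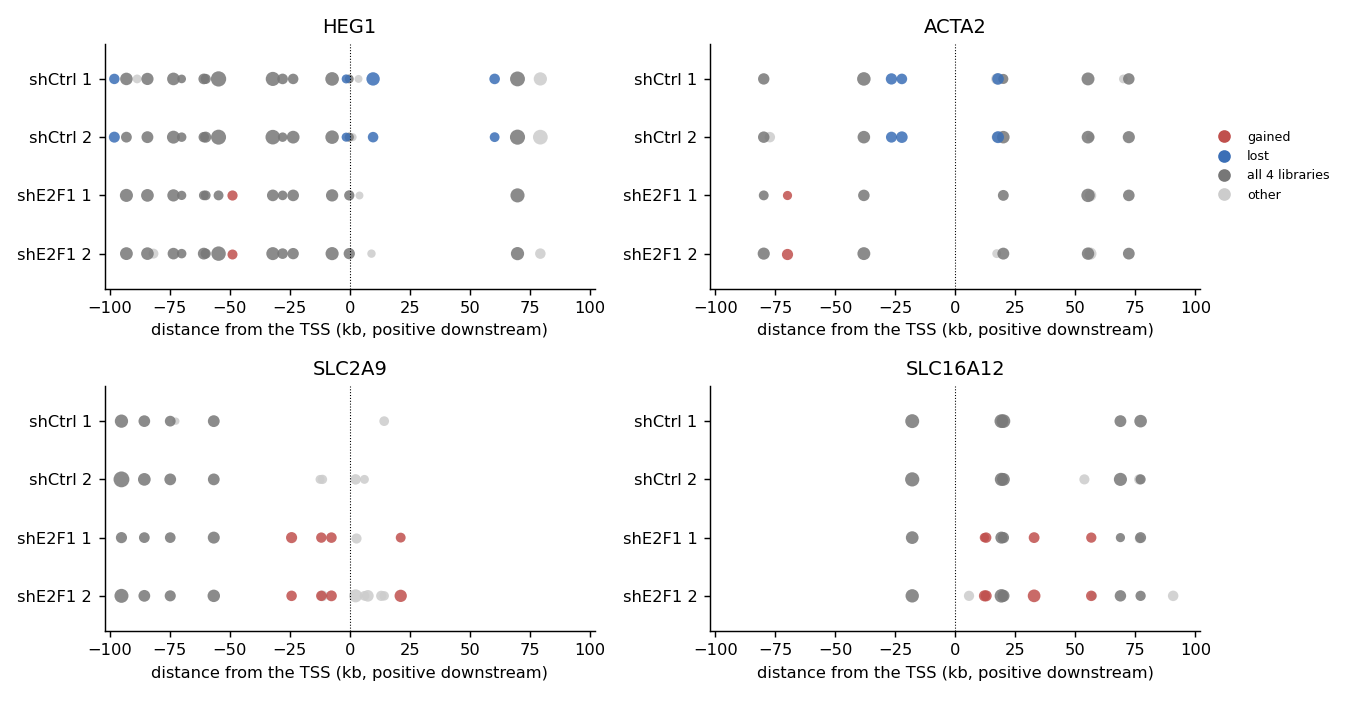
Regions within 100 kb of the TSS at 2 loci with steady losses (HEG1 and ACTA2) and 2 with steady gains (SLC2A9 and SLC16A12), by distance from the TSS in kb. Each row is a library, each dot a peak with an area that grows with its fold enrichment, and colors give the class: the 4 lost dots of HEG1 appear only in the shCtrl rows and the 4 gained dots of SLC2A9 and of SLC16A12 only in the shE2F1 rows, and the HEG1 and ACTA2 windows also hold 1 gained region each.

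Few gained or lost regions lay at promoters. There, 11802 regions had a peak in all 4 libraries and so could be neither gained nor lost, whatever their change in height. Only 73 gained (33 steady) and 271 lost (94 steady) regions overlapped 1 kb around a TSS, and 32 and 151 of them lay at a promoter that had another region in all 4 libraries. Among the strongest steady promoter gains, one covered the TSS of PCK1, the gluconeogenic enzyme PEPCK (6.57 and 9.22, in none of the 5 other libraries), whose promoter had no region in all 4 libraries. ZDHHC18, OAS1, an antiviral gene, VIT, DMBT1, P2RX1 and ERBB4, a receptor tyrosine kinase, followed with 4.89 to 6.98. The strongest steady promoter losses were at an unnamed gene of the HOXA cluster (ENSG00000257184, 7.95 and 9.20), KLHL13 (7.33 and 8.99), DRP2 (7.17 and 8.12) and NOTCH2 (6.81 and 8.45). The NOTCH2 promoter has near-identical copies in the NOTCH2NL genes, so its peak is uncertain. GPR183, MS4A15, FGFBP2 and C3orf49 followed with 5.73 to 7.97. Of the 8 lost promoter regions, all had a peak in at least 2 of the 5 other libraries, and of the 8 gained ones none had a peak in more than 1.

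Gained and lost summits differed in sequence. A word was counted when it occurred on either strand in the 200 bases at the summit, so a match is a description of letters and not a binding site. The words were those of the factors listed above, plus CCAAT (NFY), TGTTTAC (FOX), CCGGAAG (ETS) and the NRF1 motif. The GATA word, and the KLF word CCACACCC, were added after words of 7 letters had been compared between the classes. AGATAAG ranked 4 of 2570 words by its share in gained over that in 1-library-each summits. Its excess in gained summits was thus selected from these data, and its interval does not allow for this. Outside promoters, the GATA word was in 7.97% (7.06 to 8.999) of 2997 gained summits, in 1.86% (1.48 to 2.34) of 3817 lost summits, in 3.25% of 1-library-each and in 3.41% of all-4 regions, and in 3.37% of all 92751 regions. The CTCF motif was in 0.801% (0.539 to 1.19) of gained and 5.45% (4.77 to 6.22) of lost summits, with 4.26% in 1-library-each, 4.12% in all-4 and 3.72% in all regions. The RUNX word was in 16.8% (15.5 to 18.2) of gained and 24.6% (23.3 to 25.99) of lost summits, with 18.98%, 21.1% and 20.0% in the other classes in that order. Gained summits thus held more GATA and fewer CTCF words than each comparison class, and lost summits more RUNX words.

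Other words also differed between the classes. CCAAT was in 28.4% of gained and 18.9% of lost summits, the TEAD word in 24.7% and 17.2%, and the KLF word in 6.77% and 2.57%. Over all regions, the TEAD difference of gained minus lost was 7.80 percentage points and fell to 1.56 without shE2F1 replicate 1. With each library left out, the difference ran from 4.62 to 8.56 for CCAAT and from 2.25 to 3.19 for KLF. TGAGTCA, bound by AP-1, was in 31.9% and 23.6%, but over all regions the difference of gained minus lost turned from 8.87 to -2.81 percentage points without shE2F1 replicate 2. The E2F words themselves were rare, in 0.300% of gained, 0.655% of lost and 0.672% of all-4 summits outside promoters. Gained summits were poorer in G and C, with a median GC content of 45.5% against 49.5% in lost and 50.5% in all-4 summits. With shares weighted to the GC content of the all-4 regions between 30% and 70% GC, where every 5% step held at least 20 regions of each class (37709 of the 39409 all-4 regions), the GATA word was in 6.41% of gained and 1.81% of lost summits, the CTCF motif in 0.983% and 5.31%, and the RUNX word in 17.1% and 24.98%.

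Regions of a single library, which are neither gained nor lost, were compared after these shares had been seen. Of the regions found in a single library of the 4, outside promoters, 1.83% and 1.99% of those only in shCtrl 1 or shCtrl 2 held the GATA word, and 3.86% and 4.71% of those only in shE2F1 1 or shE2F1 2. The CTCF motif was in 2.62% and 3.22% for shCtrl and in 1.38% and 1.55% for shE2F1. The RUNX word was in 18.3% and 21.2% against 17.0% and 16.9%. The 2 shE2F1 values did not overlap the 2 shCtrl values for any of the 3. This was not particular to them, as the TEAD, CCAAT, KLF, FOX and ETS words did not overlap either. Only the E2F, AP-1 and NRF1 words overlapped. The median GC content of these single-library summits also differed, at 52.5% and 51% for shCtrl and 50% and 48% for shE2F1. Their shares were not weighted for GC content. In the whole lists outside promoters, which include the gained and lost regions, each cut to 58626 peaks, the GATA word was in 3.79% and 3.86% of shE2F1 peaks and in 2.51% to 3.16% of peaks of the other 7 libraries, and the RUNX word in 20.0% and 20.0% against 20.9% to 22.3%. CCAAT was in 22.8% and 23.1% against 21.5% to 21.8%. For CTCF the shE2F1 values (3.74% and 4.10%) overlapped those of the other 7 (3.81% to 4.98%), the lowest of which was the second shEZH2 library.

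The GATA share of gained summits and the CTCF and RUNX shares of lost summits were higher in stronger regions. The GATA word was in 6.79% of gained summits of strength under 25, 8.23% of those from 25 to under 50 and 12.2% (9.27 to 15.97) of 368 at 50 or over. The CTCF motif was in 3.51%, 7.86% and 9.72% (6.62 to 14.1, of 247) of lost summits in the same steps, and the RUNX word in 22.95%, 26.5% and 29.1%. The GATA word was in 9.07% (7.72 to 10.6) of gained summits without a peak in the 5 other libraries and in 4.98% (3.09 to 7.94) of those with a peak in 3 or more. Of the genes of the factors, GATA1 to GATA5 had no promoter peak in any of the 4 libraries, and GATA6 had one in each (4.92 and 5.79 in shCtrl, 6.07 and 5.61 in shE2F1). The RUNX1 promoter had 4.48 and 5.41 in shCtrl and 3.99 and 4.07 in shE2F1, RUNX3 had none, and RUNX2 had a peak in all but shCtrl 1. Which factor, if any, occupies these summits was not tested.

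**Figure D5:**
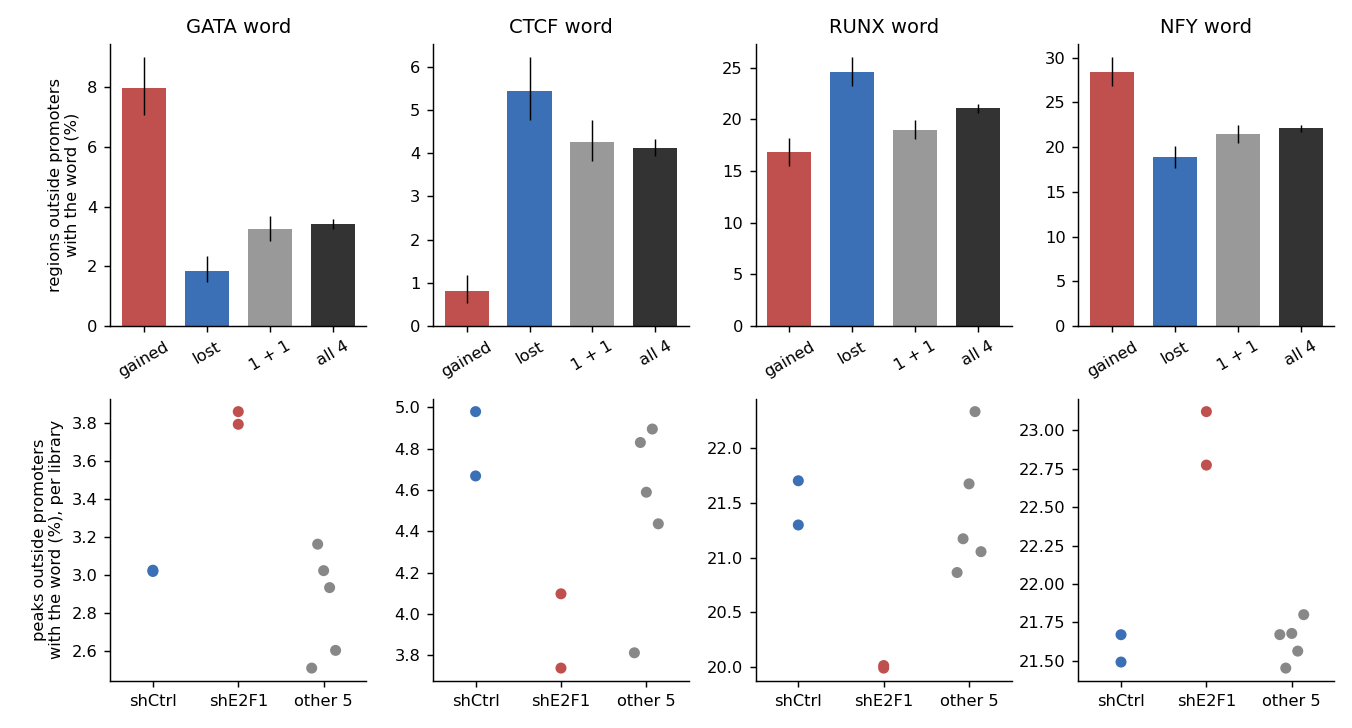
Share of summits outside promoters that hold the GATA, CTCF, RUNX or NFY (CCAAT) word, by class of region (top, error bars 95% Wilson intervals; 1 + 1 means 1 library of each group) and in the whole list of each library cut to equal length (bottom, 1 dot per library, axes not starting at 0). The gained bar is highest for GATA (7.97%) and lowest for CTCF (0.801%), and the 2 shE2F1 dots lie outside the range of the other 7 libraries for GATA, RUNX and NFY.

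The 51211 shared regions, which every one of the 4 libraries had, were tested for a change in height, with limma on quantile-normalized log2 fold enrichment. At an adjusted p under 0.05 no region passed in either direction (0% higher and 0% lower), and the smallest adjusted p was 0.216 by limma. At an unadjusted p under 0.05 there were 2528 higher and 2531 lower regions, 9.88% of those tested. The SD of the difference between the shCtrl replicates was 0.282 across regions and that between the shE2F1 replicates 0.333. That of the difference between group means was 0.270. Means of 2 libraries vary less than single libraries do, so this SD cannot be set directly against those between replicates. Both shE2F1 values lay above both shCtrl values in 10283 regions (20.1%) and below them in 10381 (20.3%).

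The regions of smallest p are listed as candidates only, as none passed limma's adjusted threshold. The region 307404 bp downstream of the TSS of SNX13 had a fold enrichment of 4.66 and 3.899 in shCtrl and 10.8 and 15.2 in shE2F1, a log2 difference of 1.73 ± 0.21 (SE, n = 2 and 2; adjusted p = 0.216, limma). Regions near GNAT3 (5.38 and 5.20 against 13.5 and 13.1), FYB1, CDKL1 and RNLS also were higher in both shE2F1 libraries, with log2 differences of 0.96 to 1.48. The region 86474 bp upstream of CEP83 had 15.1 and 17.6 in shCtrl and 6.39 and 7.55 in shE2F1, a log2 difference of -1.03 ± 0.16 (SE). Regions near KCNJ6, YTHDC2, DNASE1L3 and SLC10A2 had log2 differences of -1.22 to -0.99. The 2 groups did not overlap in these 10 regions, but the regions were picked by smallest p, so this is no support for them. Of all shared regions, 20.1% had both shE2F1 values above both shCtrl values and 20.3% below.

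Words also went with height in the shared regions, by small amounts. Among 39409 shared regions outside promoters, those with the GATA word had a median log2 difference of 0.07 against -0.01 without it, on the normalized scale, and 59.6% against 47.8% were higher with shE2F1. Those with the CTCF motif had -0.11 against -0.01, and 33.5% against 48.9% were higher, and those with the RUNX word had -0.04 against -0.004, with 43.5% against 49.5%. Between the replicates of a group, the regions with the word had median differences of -0.01 and -0.004 for GATA, 0.02 to 0.03 for CTCF and -0.01 for RUNX. Before normalization the median log2 difference of all shared regions was -0.18, and beside this shift the GATA regions were at -0.10, the CTCF regions at -0.28 and the RUNX regions at -0.22.

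Genes of the cell cycle, which E2F factors are known to control, had accessible promoters in both groups. Of 40 genes of the G1/S transition and DNA replication, 39 had a promoter peak in all 4 libraries, and of 30 genes of G2 and mitosis all 30 did, against 12513 of all 20007 protein-coding genes. Members of the other lists with a peak in all 4 were 15 of 17 of the E2F, DP and RB family, 13 of 13 of PRC2 and its partners, 24 of 26 apoptosis genes, 6 of 8 CDK inhibitors and 11 of 12 AP-1 genes. No promoter region of any list passed limma's threshold in either direction. Of the G1/S promoters 28 were higher and 11 lower with shE2F1 (median log2 0.07), and of the G2 and mitosis promoters 25 and 5 (0.08), against 7052 and 5545 of all genes (0.03). These directions depended on the scale. On fold enrichment as deposited, 5 G1/S promoters were higher and 34 lower (median -0.15) and 3 and 27 of the G2 and mitosis promoters (-0.11), beside the shift of -0.18 in all shared regions, and with median centring the counts were 25 and 14, and 23 and 7.

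The cyclin gene CCNB1 had 14.8 and 17.7 in shCtrl and 15.1 and 15.8 in shE2F1 at its promoter (log2 difference after quantile normalization 0.16 ± 0.11, SE, n = 2 and 2; adjusted p = 0.695, limma). RRM2, a subunit of ribonucleotide reductase, had 6.27 and 6.82 against 5.70 and 7.59, and MCM2, of the replicative helicase, 15.2 and 16.8 against 10.2 and 12.9. The E2F1 promoter itself had 7.49 and 11.96 against 9.18 and 11.4, and the EZH2 promoter 10.6 and 12.8 against 10.7 and 11.8. On fold enrichment as deposited the groups overlapped at CCNB1, RRM2, E2F1 and EZH2 and not at MCM2, where limma's adjusted p was 0.564. On that scale all shared regions had a median shift of -0.18, and the share of them without overlap was not counted. After quantile normalization the groups overlapped at RRM2 and E2F1, and at CCNB1 and EZH2 both shE2F1 values lay above both shCtrl values. The latter held in 20.1% of all shared regions, with 20.3% the other way.

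Lost and gained regions were also counted within 100 kb of these genes. At least 1 lost region lay within 100 kb of 17 of the 40 G1/S genes (42.5%), 18 of the 30 G2 and mitosis genes and 15 of the 26 apoptosis genes (57.7%), beside 35.1% of all genes. At least 1 gained region lay near 22.5%, 13.3% and 23.1%, beside 24.1% of all genes. The windows of these genes also held more regions of any class, with medians of 15, 15.5 and 15, beside 13 for all genes. Counting steady regions only, a loss lay near 17.5% of the G1/S genes, 33.3% of the G2 and mitosis genes and 23.1% of the apoptosis genes, beside 20.7% of all genes, and a gain near 8, 2 and 4 genes (20%, 6.67% and 15.4%), beside 15.7%. The larger share of losses was thus not kept near G1/S genes and was close to that of all genes near apoptosis genes. Chosen after their values were seen, the steady losses included a region 38264 bp downstream of the CDK1 TSS (6.45 and 7.80 in shCtrl), one 18548 bp downstream of the TOP2A TSS (6.09 and 6.50), one 13215 bp downstream of the HMMR TSS (6.09 and 6.17) and the 3 near ACTA2, which lie upstream of FAS. Strong gains included one 14999 bp upstream of MCM10 (9.42 and 7.40 in shE2F1), a replication initiation factor, one 59733 bp downstream of the TSS of CASP9, the initiator caspase (6.79 and 9.68), and one 93782 bp downstream of PMAIP1 (6.79 and 8.50), which encodes the BH3-only protein NOXA. These genes were taken from lists chosen with earlier results known, and no enrichment was tested.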

How the data were processed

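ATAC-seq peak lists of 9 MDA-MB-231 libraries were used, 2 of shCtrl and 2 of shE2F1 for the comparison and 5 as a readout. Per the submitters' notes, the authors aligned reads to hg38 with Bowtie2 (-k 4, end to end) and shifted them by +4 and -5 bp for Tn5, and peaks were called in each library. The peak caller and the treatment of reads with several alignments are not given in the sources used here. The deposited values are a fold enrichment (a ratio to local background), its -log10 p and -log10 q, and a score that is 10 times -log10 q. Depth is not given, so the precision of single peaks is unknown, and intervals (95% Wilson for shares, binomial ranks for medians) cover counting error over regions only.

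Peaks were merged at 1 bp overlap, and equal-length lists kept the top peaks by -log10 p. Places and distances used protein-coding genes of GENCODE 44 (20007), with promoters as 1 kb on each side of the TSS. Shared regions were tested with limma 3.58.1 (lmFit and eBayes with trend, Benjamini-Hochberg adjustment) in R 4.3.3 on quantile-normalized log2 fold enrichment. Python 3.11.15, pandas 2.3.3, NumPy 2.4.6 and SciPy 1.17.1 did the rest, and the scripts were tested on simulated data. Words were searched on both strands in hg38.

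The text names the 10 strongest steady regions, 8 loci with most steady regions and 8 strongest steady promoter regions in each direction, and the 5 shared regions of smallest p in each. Some items that this rule or the lists would name are not reported here. The members and gene lists were chosen with earlier results of these data known. The GATA and KLF words, the regions outside promoters, the single-library regions and whole lists, the motif shares without each library, the shared regions split by word and the lists of GATA, RUNX, TEAD and CTCF genes were added after seeing the data.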

Additional observations from a re-analysis of the deposited data

How the results depend on the processing

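Of 125 values recomputed under another setting, 63 stayed within the spread or 1.5 times the count, 59 moved, 2 passed a threshold and 1 reversed. Leaving out each library gave 4758 to 13623 gained and 5561 to 12627 lost regions, and 4921 to 9288 and 5742 to 8531 at equal list lengths, since 1 library then stands for its group. Of the shared regions, 0 passed with limma, against 3 with a replicate block and 64 with -log10 p in place of fold enrichment. Same-numbered libraries deviated together with a correlation of 0.0545 over 2 pairs. With so few pairs this cannot decide whether the replicate numbers pair the samples, and the labels do not say. Equal list lengths gave median widths of 356 and 318 bp for gained and lost regions and 5.26% of lost regions at promoters. Promoters of 500 bp on each side held 1.34% and 3.74%, and of 2 kb 4.04% and 9.44%. Within 50 kb, 284 and 638 genes had at least 2 gained and lost regions. With all 9 lists equal, DMSO had a peak in 27.6% and 60.03%. Gained minus lost shares, in percentage points, became -5.98 for CTCF and -9.50 for RUNX at equal lengths, and 3.07 for GATA in a 100 bp window and 3.99 when GC-weighted. Without each library they ran from -4.84 to -1.71 for CTCF, -5.94 to -3.10 for RUNX and 3.48 to 4.68 for GATA. The AP-1 difference ran from -2.81 to 14.1 and reversed without shE2F1 replicate 2, and the cause was not tested.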
